A study of Mus musculus with 2 samples.

Results

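CD8 T cells with little CD62L on their surface were examined among the CD45+ leukocytes of mouse visceral adipose tissue (VAT). They numbered 159 of the 25198 cells that passed the filters, 69 in the library of mice given normal water (NW) and 90 in the library of mice given antibiotics (ABX). They were selected on measured UMIs (unique molecular identifiers, each 1 counted molecule). A cell was taken when it had at least 1 UMI of Cd8a or Cd8b1, at least 1 UMI of a Cd3 gene, at least 15 UMIs of the TCR-beta antibody, under 10 UMIs of the CD4 antibody and under 10 UMIs of the CD62L antibody. Cells with more than 2 UMIs of Trdc, with 5 or more UMIs of the C1q genes, or with any UMI of Xcr1, Clec9a or Cdh5 were left out, to keep gamma-delta T cells, macrophages, dendritic cells and endothelial cells apart. The genes and antibodies of this rule therefore describe the cells and are no finding. The NW and ABX groups were both male C57BL/6 wildtype mice of 15 weeks, and the ABX group drank water with ampicillin, vancomycin, streptomycin and colistin. VAT was digested with enzymes, CD45+ cells were taken with magnetic beads, and each group gave 1 library of the BD Rhapsody whole transcriptome kind with AbSeq, in which antibodies carry countable oligonucleotide tags. The number of mice behind each library is not given in the sources used here, so the spread between mice is unknown and no difference between NW and ABX was tested.

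CD8 T cells recognise peptides on MHC class I and, once they have met antigen, can kill target cells with perforin and granzymes and release interferon gamma and chemokines. CD62L lets lymphocytes enter lymph nodes, and naive and central memory CD8 T cells keep it while effector and tissue-resident cells lose it. In adipose tissue, CD8 T cells are known to take part in the inflammation that comes with obesity.

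The NW library held 12474 and the ABX library 12724 cells after filtering, with medians of 5092 and 3845.5 UMIs per cell. The CD62L-low CD8 T cells were shallower, at a median depth of 3032 (NW) and 2743.5 (ABX) UMIs, and single cells ranged from 1100 to 14145 and from 662 to 14121 UMIs. The libraries shared 196 barcodes of cells that passed the filters, and 1 of the CD62L-low CD8 T cells in each library shared its barcode with a cell of the other library, though never with another cell of this kind. Some cells lay close to the limits of the rule. CD62L antibody counts of 8 or 9 were found in 6 NW and 3 ABX cells just inside, and counts of 10 or 11 in 3 NW and 2 ABX cells just outside. A single Cd8 UMI qualified 15 NW and 11 ABX cells, whereas 173 NW and 280 ABX cells met every other condition but had no Cd8 UMI. The TCR-beta antibody, at 15 to 19 UMIs in 7 NW and 10 ABX cells, had a median of 16 in NW and 14 in ABX over all cells, so the limit of 15 lay near the median of all cells.

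The effector label was checked first. Ccl5, a chemokine of activated and memory T cells, was found in 76.8% of the cells in NW (95% interval 65.1% to 86.1%) and 84.4% in ABX (75.3% to 91.2%). B cells, which should lack it, had a Ccl5 UMI in 9.78% and 8.82% at medians of 3981 and 4079.5 UMIs, so most of the signal stood above background. Nkg7, a protein of cytotoxic granules, was found in 85.5% (75% to 92.8%) in NW and 78.9% (69.0% to 86.8%) in ABX, against 1.26% and 1.09% of B cells. Both genes together were found in 50 NW cells (72.5%) and 65 ABX cells (72.2%). Ifng, the gene of interferon gamma, was found in 27.5% (17.5% to 39.6%) in NW and 16.7% (9.64% to 26%) in ABX, and in 0.315% and 0.218% of B cells.

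The label held less well for the killing machinery itself. At least 1 of the granzymes Gzma, Gzmb, Gzmk and Gzmm was detected in 30 cells of NW, or 43.5% (31.6% to 56.0%), and 17 cells of ABX, or 18.9% (11.4% to 28.5%). With Prf1, the gene of perforin, included, the count was 35 of 69 cells in NW (50.7%) and 25 of 90 in ABX (27.8%). In NK cells, Gzma alone was found in 84.7% in NW and 78.7% in ABX, compared with 11.6% and 5.56% of the CD62L-low CD8 T cells. Prf1 was found in 73.2% and 67.8% of NK cells and in 18.8% and 16.7% of the CD62L-low CD8 T cells. Gzmk, a granzyme of memory CD8 T cells, had the opposite distribution, with 24.6% (15.1% to 36.5%) in NW and 11.1% (5.46% to 19.5%) in ABX of the CD62L-low CD8 T cells against 1.05% and 1.98% of NK cells. In addition, genes linked to memory rather than to terminal effectors were frequent. Tcf7, a transcription factor of naive and memory cells, was found in 63.8% in NW and 68.9% in ABX, and Il7r, the receptor for interleukin 7, in 78.3% and 56.7%. Klrg1, a marker of terminal effector cells, was found in 14.5% and 13.3%. The cells are therefore called CD62L-low CD8 T cells here, after the rule that chose them.

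**Figure D1:**
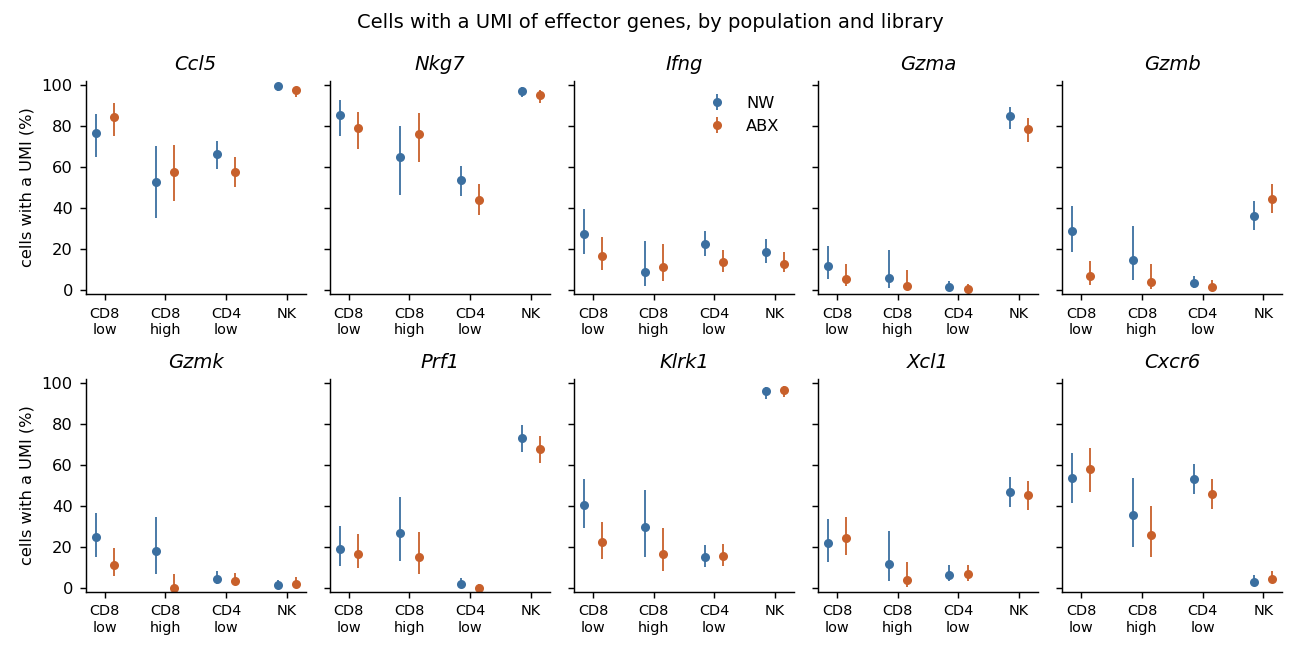
Percentage of cells with at least 1 UMI of 10 effector genes (vertical axis) in CD62L-low CD8, CD62L-high CD8, CD62L-low CD4 T cells and NK cells (horizontal axis), in NW (blue) and ABX (orange), with exact 95% intervals that cover counting error only. Ccl5 and Nkg7 stand high in CD62L-low CD8 T cells of both libraries, while Gzma and Prf1 stand near or above 70% only in NK cells.

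The surface antibodies that the rule did not use give an independent view. The CD8b antibody had a median of 38 UMIs in the NW cells (range 4 to 174) and 19.5 in the ABX cells (3 to 167), above the medians of CD62L-low CD4 T cells, which were 9 in both libraries, and of NK cells, which were 5 and 4. CD62L-high CD8 T cells, which meet the same rule with at least 10 CD62L antibody UMIs, had higher medians of 111 and 84. Their TCR-beta antibody medians were higher as well, at 86 and 86.5 against 45 and 32.5 in CD62L-low cells. The part of total antibody counts in the CD8b difference between the classes was not tested. The CD8b antibody was under 10 UMIs in 3 of 69 NW and 14 of 90 ABX cells, and over all cells its median was 10 and 8. The median in ABX was 0.513 times that in NW for CD62L-low cells, 0.757 times for CD62L-high cells and 0.800 times over all cells. The lower median was not particular to CD8b. In the same CD62L-low cells the ratio was 0.5 for CD69, 0.6 for CD1d, 0.625 for CD25, 0.643 for NK-1.1, 0.722 for TCR-beta and 0.949 for CD44. The CD8b median was equal between the libraries in CD62L-low CD4 T cells, and in the CD62L-low CD8 T cells the single cells of NW and ABX overlapped widely.

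CD44, an adhesion receptor that antigen-experienced T cells carry at high levels, had a median of 89 UMIs in NW (2 to 832) and 84.5 in ABX (4 to 539) in CD62L-low CD8 T cells. CD62L-high cells had medians of 83 and 70.5, and CD62L-low CD4 T cells 169 and 166, so the CD44 antibody separated the CD8 classes little. CD25, the interleukin 2 receptor alpha chain, stood at medians of 8 and 5, CD69, an activation and residency marker, at 8 and 4, and CD1d, which presents lipids, at 5 and 3. Each of these was at or below the median of all cells of the same library. The NK-1.1 antibody reached 10 or more UMIs in 58 NW and 63 ABX cells, but its medians of 21 and 13.5 were below those of all cells, 26 and 22, and it was not read as expression.

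**Figure D2:**
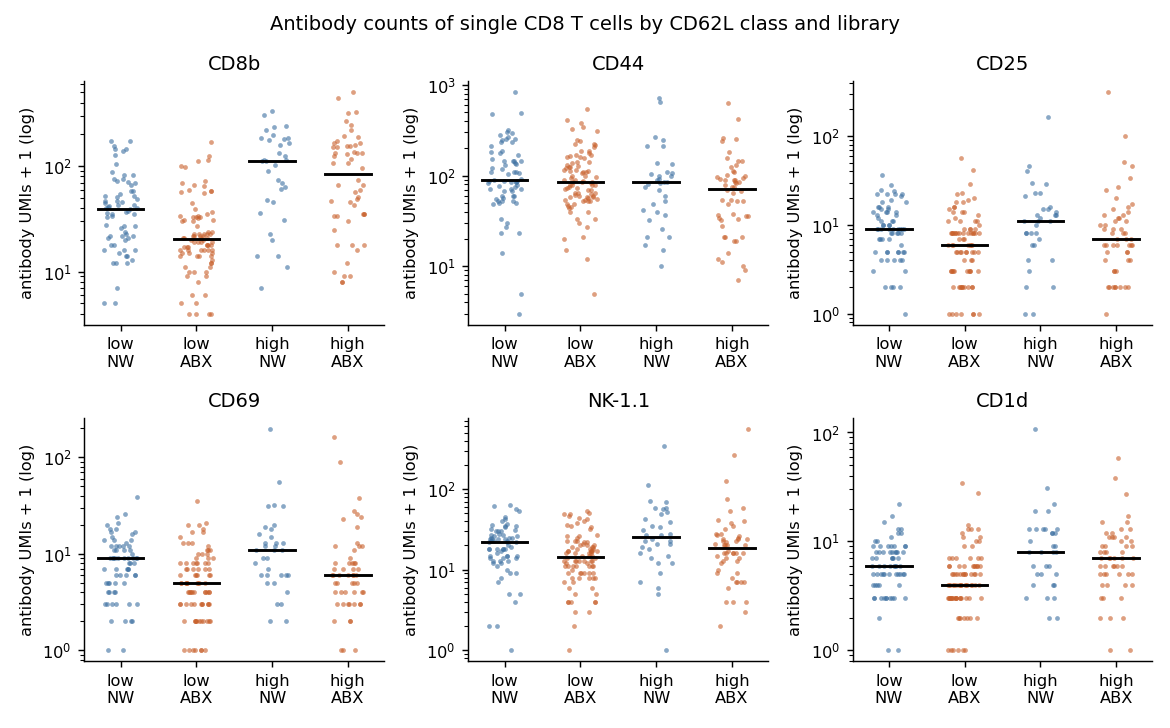
Antibody UMIs plus 1 (log axis) of single CD8 T cells, by CD62L class (low or high) and library (NW blue, ABX orange), for 6 antibodies, with black bars at the medians. Of these 6 antibodies, none of which the rule used, CD8b separates the classes most, with medians of 38 and 19.5 in CD62L-low and 111 and 84 in CD62L-high cells, and CD44 overlaps between them.

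To see what else goes with low CD62L, CD62L-low cells were compared with the 34 NW and 54 ABX CD62L-high CD8 T cells of the same library. For each class the UMIs of a gene were added up and divided by the class total, as counts per 1000000 UMIs (CPM), a level, and a gene was counted when it was at least 2-fold apart in the same direction in both libraries. Of 3318 genes with at least 50 UMIs, 65 (1.96%) were higher and 24 (0.723%) were lower in CD62L-low cells, and the median log2 difference of all genes was 0.09 in NW and 0.14 in ABX. The median depth was 3032 and 2743.5 UMIs in CD62L-low cells against 3868.5 and 4211.5 in CD62L-high cells, and the part of depth in these differences was not tested.

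Promoters of 3 genes the comparisons turn on are shown as RefSeq gives them for GRCm38.p6, from 250 bases before to 50 bases after the transcription start, 5′ to 3′ on the gene's strand. Cxcr6 and Xcl1 were higher in CD62L-low than in CD62L-high cells, and Gzmb was the granzyme that differed most between the libraries. Capitals mark short motifs found on either strand, which are TGTGGT (RUNX factors), GGTGTGA (T-box factors such as T-bet and Eomes) and CTTTGA (TCF and LEF factors). Cxcr6 lies at chr9:123806227-123806526 on the plus strand, Xcl1 at chr1:164935473-164935772 on the minus strand and Gzmb at chr14:56262285-56262584 on the minus strand.
Cxcr6: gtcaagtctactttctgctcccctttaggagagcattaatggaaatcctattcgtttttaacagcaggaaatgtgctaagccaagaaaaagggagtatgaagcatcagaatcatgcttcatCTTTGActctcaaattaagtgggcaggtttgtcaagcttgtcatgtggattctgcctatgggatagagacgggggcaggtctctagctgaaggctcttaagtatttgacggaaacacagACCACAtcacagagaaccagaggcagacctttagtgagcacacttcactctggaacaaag
Xcl1: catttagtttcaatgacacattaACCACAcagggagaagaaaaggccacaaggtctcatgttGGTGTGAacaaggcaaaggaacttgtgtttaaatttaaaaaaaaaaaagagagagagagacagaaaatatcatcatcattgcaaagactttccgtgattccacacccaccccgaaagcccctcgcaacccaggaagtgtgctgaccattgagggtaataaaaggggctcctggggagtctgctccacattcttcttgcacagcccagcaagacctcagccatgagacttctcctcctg
Gzmb: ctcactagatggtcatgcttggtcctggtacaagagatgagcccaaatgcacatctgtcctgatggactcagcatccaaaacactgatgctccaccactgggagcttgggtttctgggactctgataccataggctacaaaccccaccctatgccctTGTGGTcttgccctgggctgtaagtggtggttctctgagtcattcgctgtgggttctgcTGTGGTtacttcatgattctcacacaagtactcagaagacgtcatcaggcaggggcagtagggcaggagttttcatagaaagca

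The Cxcr6 window held a RUNX motif 10 bases and a TCF/LEF motif 129 bases before the start, the Xcl1 window a RUNX motif at 227 and a T-box motif at 188 bases, and the Gzmb window RUNX motifs at 93 and 34 bases before it. RUNX motifs were found in 16.9% of all 27025 promoters of this length, T-box motifs in 3.96% and TCF/LEF motifs in 16.2%. Among the 65 genes higher in CD62L-low cells, 45 had a promoter in the table, and 10 of these (22.2%) held a RUNX motif, 1 a T-box motif and 7 (15.6%) a TCF/LEF motif. The corresponding shares over the promoters of 2625 genes measured in this comparison were 12.5%, 3.31% and 11.1%. An ETS motif (CAGGAA, either strand), was counted in the same way and stood in 20 of 45 promoters (44.4%), against 26.7% of those measured. AP-1 (TGAGTCA) and NFAT (GGAAAA) motifs stood in 3 (6.67%) and 12 (26.7%), against 3.09% and 20.4%. Of the 24 genes lower in CD62L-low cells, 19 had a promoter. Of these, 15.8% held a RUNX, 10.5% a T-box, 5.26% a TCF/LEF, 15.8% an ETS, 5.26% an AP-1 and 26.3% an NFAT motif. None of these shares was tested. Motifs of different names may share letters where they overlap, and a match of letters is not a binding site.

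Homing and residency lists held several of these genes. Of 14 homing genes measured, 5 were higher in CD62L-low cells in both libraries. Cxcr6, the receptor for CXCL16 that tissue T cells carry, stood at 448 CPM in CD62L-low and 221 CPM in CD62L-high cells of NW, and at 492 and 111 CPM in ABX. The 4 values do not cross between the classes, and the log2 differences were 1.02 (95% counting interval 0.43 to 1.66) in NW and 2.15 (1.57 to 2.78) in ABX. Cxcr3, the receptor for interferon-induced chemokines, was 427 against 80.9 CPM in NW and 238 against 91.5 CPM in ABX, with log2 differences of 2.40 and 1.38. Itgb1, the beta-1 integrin chain that binds matrix, was 1020 against 419 CPM in NW and 812 against 236 CPM in ABX (log2 1.28 and 1.78). The chemokine receptor Ccr2 was also higher (log2 1.07 in NW, 1.71 in ABX).

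Of 8 residency genes measured, 4 were higher in both libraries. They were Cxcr6, Xcl1, P2rx7, a receptor for extracellular ATP (log2 1.12 in NW, 2.33 in ABX), and Nr4a1, an immediate early gene of T cell receptor signalling (1.24 and 1.67). Itga1, the collagen-binding CD49a chain of resident CD8 T cells, was 99.5 against 51.5 CPM in NW (log2 0.95, -0.31 to 2.41) and 168 against 11.4 CPM in ABX (3.88, 2.25 to 6.20), and was not past 2-fold in NW. Xcl1, a chemokine that draws cross-presenting dendritic cells, was the most different of the chemokines. Its level was 145.2 CPM in CD62L-low and 29.4 CPM in CD62L-high cells of NW and 158 and 7.63 CPM in ABX, with log2 differences of 2.30 (0.82 to 4.26) and 4.38 (2.44 to 7.46). Ly6a, the surface protein Sca-1, was 183 against 22.1 CPM in NW and 228 against 64.8 CPM in ABX.

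Of 9 effector transcription factors measured, 2 were higher in CD62L-low cells in both libraries, which were Ikzf3 (log2 1.79 in NW, 1.14 in ABX) and Bhlhe40 (1.13 and 1.31). Among the metabolite genes 2 of 10 were, the nuclear receptor Rora (1.52 and 1.96) and the proton sensor Gpr65 (2.01 and 1.29), and among the cytokine receptors Il2ra (2.54 and 1.26). Much of the Il2ra signal lay at the edge of the rule, with 416 CPM in the 15 NW cells with 1 Cd8 UMI against 57 CPM in the other 54, and 707 CPM in 11 ABX cells against 116 CPM in the other 79, where CD62L-high cells of ABX stood at 83.9 CPM. Id2, a regulator that effector cells need, was 1103 against 566 CPM in NW and 1270 against 324 CPM in ABX, which gave 0.96 and 1.97 and left it just under 2-fold in NW. The NK receptors Klrk1 (1.36 and 1.14) and Klrg1 (1.5 and 1.34) were 2 of 9 measured NK receptor genes past 2-fold in both libraries. Of 9 checkpoint and costimulation genes, Cd160 (1.98 in NW, with an interval from -0.14 to 5.16, and 1.79 in ABX) and the costimulatory receptor Cd28 (1.08 and 1.13) were past 2-fold, and of 14 cytotoxic granule genes none was. With DESeq2 size factors in place of the total, Cxcr6 (0.94 in NW), Ccr2 (0.99 in NW), Ikzf3 (0.99 in ABX), Klrk1 (0.99 in ABX) and Cd28 (0.98 in ABX) went just under 2-fold. Among cells with at least 2 Cd8 UMIs, a limit chosen after the data were seen, Cxcr6 (0.48), Ccr2 (0.80), Rora (0.69) and P2rx7 (0.73) were under 2-fold in NW.

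In the other direction stood genes of naive and central memory cells, of which 5 of 17 measured were lower in CD62L-low cells in both libraries. Ccr7, the receptor that guides T cells into lymph nodes, was 45.6 against 176 CPM in NW (log2 -1.95, -3.13 to -0.87) and 19.8 against 210 CPM in ABX (-3.41, -4.91 to -2.19). Lef1, a partner of Tcf7, was 178 against 640 CPM and 195 against 511 CPM (log2 -1.84 and -1.39). Satb1 (-2.12 and -1.25) and Igfbp4 (-1.76 and -1.06) were lower as well, and outside this list Il6ra, a receptor chain for interleukin 6, was -1.61 and -2.56. Tcf7 was lower by less, at log2 -0.74 and -0.53, and Il7r at -0.34 and -0.03. Ccl5 was higher in CD62L-low cells by 0.66 and 0.90 and Nkg7 by 0.63 and 0.57, all under 2-fold, so these label genes were frequent in the CD62L-high cells too.

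**Figure D3:**
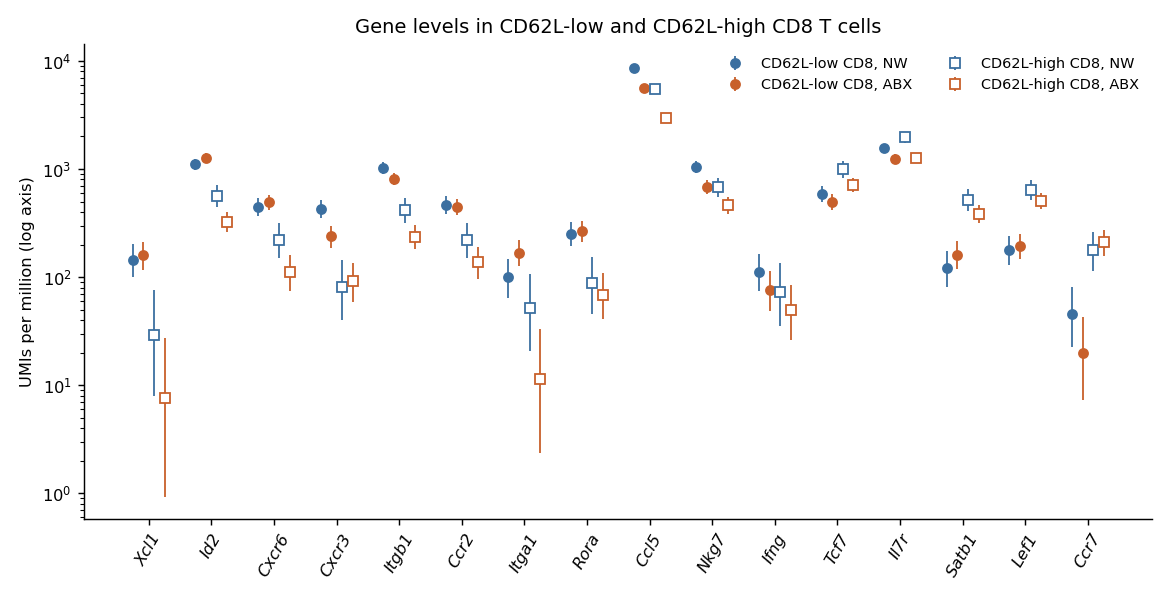
Levels of 16 genes in CPM (log axis) in CD62L-low (filled circles) and CD62L-high (open squares) CD8 T cells of NW (blue) and ABX (orange), with exact 95% Poisson intervals that cover counting error only. Xcl1, Cxcr3, Itgb1 and Rora lie higher in CD62L-low cells, Lef1 and Ccr7 lie higher in CD62L-high cells, and Ccl5 and Nkg7 are within 2-fold.

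The CD62L-low CD8 T cells were not uniform. Cells without a Ccl5 UMI numbered 16 in NW and 14 in ABX and were not shallower, with medians of 3767.5 and 3426 UMIs against 2933 and 2685 in cells with Ccl5. The split and the genes given for it were chosen after their values had been seen, over 2000 genes compared, so the values are a description. Ly6c2, a surface protein of memory CD8 T cells, was seen without Ccl5 in 25% of cells from NW and 0% from ABX (0 of 14 cells, with an exact upper limit of 23.2%), and with Ccl5 in 81.1% and 69.7%. Il2rb, the interleukin 2 and 15 receptor beta chain, was found in 37.5% and 28.6% without and 94.3% and 97.4% with Ccl5. The cells without Ccl5 also had fewer UMIs of Hopx (log2 -2.43 in NW and -2.48 in ABX) and of Tbx21, the gene of T-bet (-3.12 and -1.94).

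Other genes were more frequent without Ccl5. Il2ra was seen without Ccl5 in 43.8% (NW) and 64.3% (ABX) of cells and with Ccl5 in 5.66% and 3.95%. Tcrg-C1, a constant segment of the T cell receptor gamma chain, was found in 37.5% and 50% against 5.66% and 9.21%, though Trac, the alpha chain, was found in 81.2% and 78.6% against 88.7% and 94.7%. Il23r, the interleukin 23 receptor, was found in 18.8% and 42.9% against 3.77% and 1.32%. Lmo4, a transcription cofactor, was 750 against 70.4 CPM in NW and 1544 against 113 CPM in ABX, and Tmem176b 1217 against 153 CPM and 2136 against 170 CPM. Apart from Il23r and Trac, the genes named for this split were ranked only where both libraries differed in the same direction. That agreement was therefore set by the choice of genes and is no finding.

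This pattern overlapped with the edge of the rule. Of cells with 1 Cd8 UMI, 53.3% in NW and 36.4% in ABX had a Ccl5 UMI, against 83.3% and 91.1% of cells with 2 or more. Tcrg-C1 was found in 46.7% and 63.6% of cells with 1 Cd8 UMI and in 3.70% and 8.86% of the rest, and the CD8b antibody had medians of 17 and 4 against 39.5 and 21. Zbtb16, a transcription factor of innate-like T cells, had a UMI in 2 NW and 5 ABX cells. Whether cells of another T cell type make up part of the CD62L-low CD8 T cells was not tested.

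**Figure D4:**
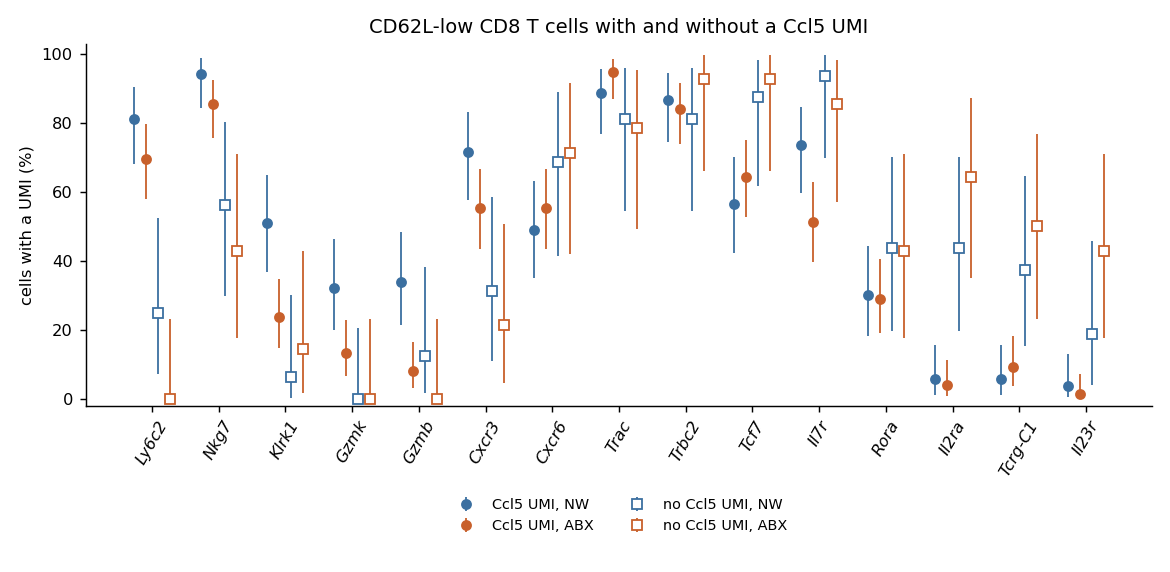
Percentage of CD62L-low CD8 T cells with at least 1 UMI of 15 genes, for cells with (filled circles) and without (open squares) a Ccl5 UMI in NW (blue) and ABX (orange), with exact 95% intervals that cover counting error only. Ly6c2 and Nkg7 lie higher with Ccl5, and Il2ra, Tcrg-C1 and Il23r lie higher without it.

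CD62L-low CD8 T cells made up 0.553% (95% interval 0.431% to 0.700%) of all cells in NW and 0.707% (0.569% to 0.869%) in ABX, a ratio of 1.28 (0.935 to 1.75) that includes 1. As a share of CD8 T cells of both CD62L classes, they were 67.0% (57.0% to 75.9%) in NW and 62.5% (54.1% to 70.4%) in ABX, a ratio of 0.933 (0.775 to 1.12). Among T cells with TCR-beta, the share was 6.69% in NW and 8.84% in ABX (ratio 1.32, 0.977 to 1.79). Each of these intervals included 1, but some other limits of the rule gave intervals that did not. The ratio of the share of all cells was 1.63 (1.12 to 2.36) with a CD62L limit of 5 UMIs and 1.43 (1.02 to 2.03) with at least 2 Cd8 UMIs, and that of the share of CD8 T cells was 0.834 (0.722 to 0.964) with a CD62L limit of 20 UMIs. The frequency between the libraries therefore depended on where the limits were set.

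Gene levels in CD62L-low CD8 T cells were then compared between ABX and NW, on 241088 summed UMIs in NW and 303087 in ABX. With 1 library per group, a gene was counted when its ratio was past 2-fold, and of 2001 genes with at least 50 UMIs, 22 (1.1%) were higher and 26 (1.3%) were lower in ABX. The median log2 difference of all these genes was -0.04. Over all lists, 135 genes were measured, of which 3 were higher (Icos, Klrg1 and Jchain) and 7 were lower (Gzmb, Gzmk, Klrc1, Klrk1, Klrd1, Nr4a1 and Rgs2).

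The cytotoxic granule list had a median log2 difference of -0.50, with 2 of 8 genes past 2-fold lower in ABX. Gzmb, a protease that triggers death of target cells, was 187 CPM in NW and 33.0 CPM in ABX, a log2 difference of -2.50 (-3.65 to -1.49). Without the cell with most UMIs in each library it stood at -2.81, with fewer than 50 UMIs left. A Gzmb UMI was carried by 29.0% (18.7% to 41.2%) of the cells in NW and by 6.67% (2.49% to 13.9%) in ABX, and in 14.1% and 2.64% once each cell was thinned to 1000 UMIs, while B cells had 0.315% and 0.327% and macrophages 0.982% and 1.18%. In NK cells Gzmb differed by 0.04 (-0.20 to 0.28), in CD62L-low CD4 T cells by -0.64 (-1.91 to 0.58), and in CD62L-high CD8 T cells by -5.03 on 34 UMIs in 5 NW cells and 2 UMIs in 2 ABX cells. The CD8 classes thus both had less Gzmb in ABX, and the interval in NK cells included 0. Gzmk was lower, at log2 -1.04 (-1.94 to -0.17), on 31 UMIs in NW and 19 in ABX, just at the minimum of 50 UMIs and just past 2-fold. Gzma (28 UMIs in NW, 13 in ABX) and Prf1 (18 and 21) were under that minimum. Nkg7 was 1049 CPM in NW and 683 CPM in ABX, a log2 difference of -0.62 (-0.89 to -0.35).

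NK receptors on CD8 T cells had a list median of -0.70, with 3 of 6 genes past 2-fold lower and 1 higher in ABX. Klrk1, which encodes the activating receptor NKG2D, was 436 CPM in NW, with a UMI in 28 cells, and 168 CPM in ABX, with a UMI in 20 cells (log2 -1.37, -1.88 to -0.88). Klrc1, the inhibitory receptor NKG2A, was 195 CPM and 56.1 CPM (-1.80, -2.69 to -0.97). In NW, 15 of the 28 cells with Klrk1 also had Klrc1 (53.6%), against 7.32% of the cells without Klrk1, and in ABX 4 of 20 (20%) against 5.71%. Klrd1, the CD94 partner of Klrc1, was lower, at log2 -1.01 (-1.64 to -0.41), with 18 of its UMIs in 1 NW cell, and stood at -0.67 without the cell with most UMIs in each library. Klrk1 was lower in CD62L-high CD8 T cells as well, at -1.15 (-2.09 to -0.22). Klrc1 differed by 0.12 (-1.03 to 1.37) and Klrd1 by -0.20 (-0.84 to 0.46) in those cells. In NK cells Klrk1 differed by -0.07 (-0.22 to 0.07) and Klrc1 by -0.44 (-0.71 to -0.17). Both genes stood closer between the libraries in NK cells than in CD62L-low CD8 T cells, a difference that was not tested. As an alternative, cells with a Zbtb16 UMI or at 10 or more NK-1.1 antibody UMIs, a count not read as expression here, were left out. This left 10 NW and 25 ABX cells, in which Klrk1 stood at -0.69 and Nr4a1, an immediate early gene, at -0.61. Klrg1 was the receptor that was higher in ABX, by 1.01 (0.11 to 1.98) on the log2 scale, and by 0.97 without the top cells. The share of cells with a Klrg1 UMI was 14.5% in NW and 13.3% in ABX, so the higher level did not come with a higher share of cells.

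Of 3 chemokine genes measured, none was past 2-fold. Ccl5 was 8677 CPM in NW and 5559 CPM in ABX, a log2 difference of -0.64 (-0.74 to -0.55). It was lower in ABX in CD62L-high CD8 T cells (-0.88) and CD62L-low CD4 T cells (-0.84) as well, and by -0.10 in NK cells. The share of CD62L-low CD8 T cells with a Ccl5 UMI was not lower in ABX (84.4% against 76.8%), so the lower summed level did not come with a lower share of cells. Cytokine genes had none of 2 past 2-fold, with a median of -0.21, and Ifng differed by -0.56 with an interval from -1.43 to 0.30 that includes 0. None of the 14 homing genes was past 2-fold, 12 of them were below 0 and the median was -0.26. Cxcr3 was 427 CPM in NW and 238 CPM in ABX (-0.85), while Cxcr6 differed by 0.13. Ly6c2 was 1680 CPM in NW and 937 CPM in ABX (-0.84), and stood at 0.23 in CD62L-high CD8, 0.22 in CD62L-low CD4 and 0.47 in NK cells.

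Nr4a1 was lower in ABX, at log2 -1.33 (-1.89 to -0.79), with 25 of its UMIs in 1 NW cell, and at -1.26 without the top cells. The same gene was lower in CD62L-high CD8 T cells (-1.75), CD62L-low CD4 T cells (-1.42) and NK cells (-1.20), so its difference was not limited to CD62L-low CD8 T cells. Of the other 18 measured genes of the immediate early and stress list, none was past 2-fold, with Dusp1 at -0.88, Hsp90aa1 at -0.75 and Jun at 0.64. In the residency list, 2 of 8 genes were past 2-fold lower, Nr4a1 again and Rgs2 (-1.17), a regulator of G protein signalling, while Itga1 was higher by 0.76 (0.03 to 1.52) and P2rx7 by 0.91 (0.25 to 1.62). The residency list as a whole had a median of -0.05.

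Outside the lists, the genes with the largest differences included Socs2, a suppressor of cytokine signalling, which was 153 CPM in NW and 412 CPM in ABX (log2 1.43, 0.89 to 2), and was higher in ABX NK cells too (1.02). Mat2a, which makes S-adenosylmethionine (1.42, 0.66 to 2.24), and Ubn2 (1.38, 0.52 to 2.32) were also higher. Anxa1, an annexin (-1.20, and -0.72 with at least 2 Cd8 UMIs), was lower in ABX, and so was Retnla (-1.31), a macrophage gene that was lower in CD62L-low CD4 T cells (-1.18) and NK cells (-1.62) as well. Icos, a costimulatory receptor, was higher by 1.28 (0.45 to 2.20), with a UMI in 10 NW and 16 ABX cells. Without the cell with most UMIs in each library it stood at 1.29, with fewer than 50 UMIs left. In ABX, 24 of its UMIs lay in the 11 cells with 1 Cd8 UMI (547 CPM, against 96.4 CPM in the other 79), and in cells with Ccl5 it was 64.5 CPM in NW and 101 CPM in ABX, under 2-fold.

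Several of the largest ratios rested on 1 cell. Igkc, Ighm and Jchain, genes of B cells and plasma cells, were higher in ABX by 4.08, 4.38 and 3.76, and 1 ABX cell held 3811 UMIs of Igkc, 2119 of Ighm and 220 of Jchain. Without the top cell in each library they were 0.93, 0.78 and 0.60. Cells with at least 50 UMIs of Igkc and Ighm, or at least 5 of Cd79a, Ms4a1 and Mzb1, numbered 3 in ABX and 0 in NW, where the highest cell had 20 UMIs of Igkc and 10 of Ighm. Nrn1 was lower, at log2 -5.94, on 49 UMIs in 1 NW cell, and Herpud1 was higher by 1.28, with 21 of its 58 UMIs in 1 cell, and by 0.88 without it.

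Transcripts of other cell types were present at low level in most cells. The other-lineage markers summed to 1294 CPM in NW and 2003 CPM in ABX, against 1029 and 1144 CPM in CD62L-high CD8 T cells, and 5 and 7 cells had no UMI of any of them. The ABX sum included the 220 Jchain UMIs of 1 cell, so it does not show more such transcripts in ABX cells at large. Of the 6 markers measured, 4 were lower in ABX, and the median log2 difference was -0.70. The macrophage gene Lyz2 was detected in 68.1% (NW) and 48.9% (ABX), and C1qb in 46.4% and 28.9%. In NW B cells C1qb was detected in 48.0%, near the 46.4% of the NW CD62L-low CD8 T cells. The rule left out cells with 5 or more UMIs of the C1q genes, so the C1qb counts were limited by the selection. Of the 29 other-lineage markers, 24 had at least 1 UMI in these cells. The markers Trdv4, S100a8, Kdr, Pdgfra and Cpa3 were at 0 in the cells of both libraries. Tcrg-C1, like Trdv4 a marker of gamma-delta T cells, had a UMI in 9 NW and 14 ABX cells. The part of transcripts of other cell types in the differences between ABX and NW was not tested.

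**Figure D5:**
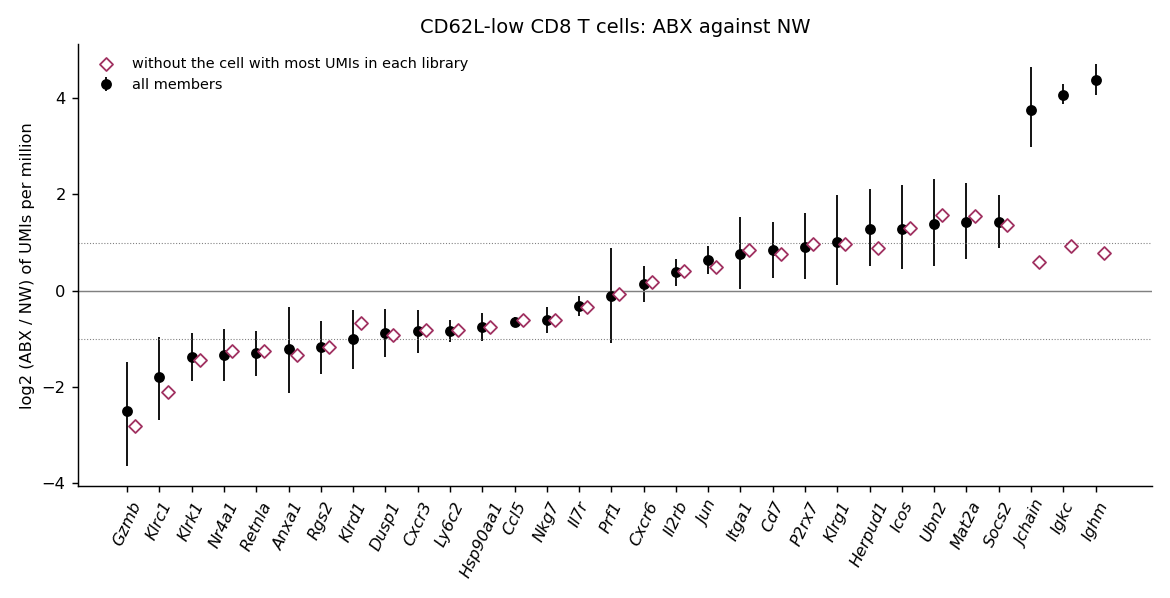
Log2 ratio of CPM in ABX to NW in CD62L-low CD8 T cells for 31 genes (black points, exact 95% intervals that cover counting error only), and the same without the cell with most UMIs in each library (open diamonds). Dotted lines mark 2-fold, Gzmb, Klrc1, Klrk1 and Nr4a1 stay past it without the top cells, and Jchain, Igkc and Ighm go from near 4 to under 1.

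The other lists showed few genes past 2-fold. T cell receptor and CD8 signalling genes (18 measured, median -0.18), effector transcription factors (7, -0.20), naive and memory genes (12, -0.29), cytokine receptors (8, -0.05), interferon-stimulated genes (4, -0.12), MHC class I and antigen processing genes (11, 0.03) and metabolite genes (8, 0.07) had none in either direction. Checkpoint genes had 1 of 5 higher in ABX, which was Icos, with a list median of -0.22, and other-lineage markers had 1 of 6 higher, which was Jchain. Of cell cycle genes 3 were measured and none was past 2-fold, with 84 of the UMIs of that list in 1 ABX cell. Il2rb, measured among the cytokine receptors, was higher by 0.38 (0.10 to 0.66), and Il7r was lower, at log2 -0.32.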

How the data were processed

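Single-cell mRNA and AbSeq antibody tags of CD45+ VAT cells were counted in 1 NW and 1 ABX library. The authors ran the BD Rhapsody pipeline (version 1.8) on GRCm38, and the deposited values are raw UMI counts per cell of each gene and antibody, without normalization. The submitters' processing notes also name R 3.6.0 and Seurat 3.0.1. The files hold 10 antibodies, the methods list 8, without CD3 and NK-1.1. A gene in 1 file only, of 26981 in either and 23231 in both, was taken as 0 in the other. Gene UMIs summed to 79855126 in NW and 64801767 in ABX.

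Cells with under 500 UMIs, under 200 genes or over 25% mitochondrial UMIs were left out, as in the study's methods, and CD62L-low CD8 T cells were taken by the rule given above. The members, lists and comparisons were chosen with earlier results of these data known. UMIs were summed over cells and scaled to 1000000 summed UMIs (CPM). Genes with at least 50 UMIs over both groups count as measured. Ratios carry exact 95% intervals of a ratio of Poisson rates, and shares exact (Clopper-Pearson) intervals, with 3 counts as the limit that a count of 0 allows. Intervals reflect counting error and nothing else. No test was possible with 1 library per group, so a gene was called past 2-fold. Genes named are those of the lists, and beyond them the 10 highest and 10 lowest of each comparison (intervals that exclude 1 for ABX against NW, same sign in both libraries for CD62L). Comparison populations were B cells (at least 3 UMIs of Cd79a and Ms4a1), macrophages (at least 20 UMIs of C1q), NK cells and CD62L-low CD4 T cells. Shares after thinning are expected values at 1000 UMIs. Doublets were kept. Scrublet set a threshold that marked 2.76% of NW and 0.00786% of ABX cells and so did not work in ABX, and the 5% of cells with the highest scores were left out as an alternative. Other alternatives changed the scaling (edgeR 4.0.16 TMM, DESeq2 1.42.0 size factors), the minimum of UMIs, the fold, the antibody limits and the cells kept. The ratio and its interval were tested on simulated data. Python 3.11.15, scipy 1.17.1, scanpy 1.11.5 and R 4.3.3 were used. Promoters are those of RefSeq for GRCm38.p6. A few list genes are left out of the text.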

Additional observations from a re-analysis of the deposited data

Results flagged for a closer look

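In 2 genes, picked for this pattern, the difference between ABX and NW went in opposite directions in the CD62L classes of CD8 T cells. Both counting intervals lay away from 0, but they were not widened for the number of genes looked at. Itga1, the CD49a chain of resident T cells, had a log2 difference of 0.76 (0.03 to 1.52) in CD62L-low cells, on 24 UMIs in NW and 51 in ABX, and of -2.17 (-4.75 to -0.04) in CD62L-high cells, on 7 and 3 UMIs. Ubn2 had a log2 difference of 1.38 (0.52 to 2.32) in CD62L-low and -0.89 (-1.71 to -0.08) in CD62L-high cells. Both intervals of Itga1 ended close to 0. With 1 library per group, the difference between the classes was not tested for either gene.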

How the results depend on the processing

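No paired analysis was possible because each group has 1 library, and for the same reason no library could be left out. The ABX to NW ratio of the share of all cells was 2.45 (interval 1.18 to 5.10) without NK-1.1 or Zbtb16 cells, which left 10 NW and 25 ABX cells. The NK-1.1 antibody was not read as expression, so that setting does not single out cells with NK receptors. The ratio of the share of CD8 T cells was 1.19 (0.901 to 1.56) with a CD62L limit of 5. Otherwise these ratios ran from 1.06 to 1.63 and from 0.834 to 1.04. The 48 genes past 2-fold between ABX and NW became 14 at a minimum of 100 UMIs, 1755 with no minimum and 287 at 1.5-fold. Without NK-1.1 or Zbtb16 cells, 20 of only 296 genes were past 2-fold, of which 1 was among the 48, and without cells with other-lineage UMIs 12 of 79, of which 0 were. Of list genes, 10 of 135 were past 2-fold, against 6 of 42 and 1 of 6 in these settings, none of them among the 10, and 4 of 125 without the top cell of each gene, all among the 10. The 89 genes past 2-fold between the CD62L classes became 34 at 100 UMIs, 366 with no minimum and 301 at 1.5-fold. Higher and lower genes numbered 22 and 26 in ABX against NW, 26 and 17 with DESeq2 size factors, 29 and 21 with at least 2 Cd8 UMIs and 25 and 16 without Zbtb16 cells. Against CD62L-high cells they numbered 65 and 24, 43 and 27 with TMM and 41 and 27 with DESeq2, which moved all genes by -0.08 in NW and -0.15 in ABX. Ighm turned to -0.0083 without B lineage cells, and Tcrg-C2, higher in CD62L-low cells by 1.70 in NW, to -1.05 with at least 2 Cd8 UMIs. Settings on B lineage, top cells, Cd8 UMIs, Zbtb16 and Tcrg-C1 were chosen after seeing the data. The cause of these changes was not tested. The few cells limit what could be detected, since intervals cover counting error only.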

Other observations

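T cell receptor segments were read in few CD62L-low CD8 T cells. A UMI of a Trbv gene was found in 15 NW and 13 ABX cells and of a Trav gene in 2 and 4. The most frequent Trbv gene was Trbv12-1 in NW, in 3 cells, and Trbv13-2 in ABX, in 2 cells.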
